A study of Mus musculus with 8 samples.

Results

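The 8 RNA-seq libraries of cells sorted as long-term haematopoietic stem cells (LT-HSCs) from asrij floxed and asrij KO mice were compared here by the number in their labels. The 4 libraries whose labels end in 4 or 5 (LLT4, LLT5, ArjKOLT4 and ArjKOLT5) form the late-numbered side, and the 4 whose labels end in 1, 2 or 3 (LLT1, LLT3, ArjKOLT2 and ArjKOLT3) form the early-numbered side. Late and early refer to the label alone, because neither the labels nor the study's methods say what the number stands for, and no batch or date is given. Each side holds 2 floxed and 2 KO libraries, so every one of the 8 libraries of the series was used. The split was chosen by measured values: it was first seen in these gene counts, as the first principal component. The differences between the sides are therefore given as a description, without a test, and tests are given only for the KO against floxed comparison, which is balanced over the sides.

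The floxed mice carry homozygous loxP-flanked alleles of asrij, the mouse gene Ociad1, and serve as controls. The KO mice lack asrij in the whole body. All mice were 6 months old per the labels, and each library came from 1 mouse. LT-HSCs had been sorted from bone marrow as LSK CD150+ CD48+ cells per the study's methods for the RNA-seq. The same methods give LT-HSCs as LSK CD150+ CD48- for RT-qPCR and for culture. Mice of both sexes were used, without the sex of a library being given. Libraries are named below by genotype and number (floxed1 to floxed5, KO2 to KO5). Values of the early-numbered side are listed in the order floxed1, floxed3, KO2, KO3, and those of the late-numbered side in the order floxed4, floxed5, KO4, KO5. They are in CPM, gene counts scaled by the TMM library size. A difference is the fitted log2 of late-numbered over early-numbered libraries with genotype as a block, with its standard error (SE) over the 8 libraries. The SE was derived from the quasi-likelihood fit of edgeR. It describes spread and is no test of the difference, because the split was seen in these same counts.

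LT-HSCs sit at the top of blood formation, divide rarely and make less protein than their progeny. A sequencing library samples their RNA through reverse transcription, fragmentation and amplification, and each of these steps is known to depend on base composition and fragment size. Ribosomal protein genes are a well-known special case, because their short and abundant mRNAs have been copied back into the genome many times. The resulting processed pseudogenes hold the spliced sequence without introns, so a read within the mRNA can be placed on the gene or on a copy, and a read across an exon junction matches the copy in 1 unbroken stretch.

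Example stretches of a gene and of a processed copy are shown first. On which of them reads were placed was not tested. For 2 ribosomal protein genes that were lower on the late-numbered side, chosen after their values were seen, 60 coding bases across an exon junction are printed beside the same stretch of a processed pseudogene. Capitals in a gene mark the downstream exon, and the single capital in a copy marks a base that differs. The sequences are from GENCODE M21 transcripts (GRCm38), 5′ to 3′.
The Rpl32 stretch lies on the minus strand at chr6:115807802-115807831 and chr6:115807138-115807167, around an intron of 634 bases, and the copy Rpl32l lies at chr10:20208556-20208615 (plus strand).
Rpl32: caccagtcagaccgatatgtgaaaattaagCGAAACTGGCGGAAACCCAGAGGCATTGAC
Rpl32l: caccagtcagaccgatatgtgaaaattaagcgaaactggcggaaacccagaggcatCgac
The Rpl7 stretch lies on the minus strand at chr1:16102490-16102519 and chr1:16101907-16101936, around an intron of 553 bases, and its copy Gm12174 lies at chr11:46728392-46728451 (plus strand).
Rpl7: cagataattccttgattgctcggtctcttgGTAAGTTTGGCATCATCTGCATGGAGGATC
Gm12174: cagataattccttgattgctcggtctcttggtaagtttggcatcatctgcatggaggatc
In the Rpl7 pair the letters of the gene and of the copy are identical over the 60 bases, and in the Rpl32 pair 1 base differs.

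A second set shows the base composition of genes that were higher on the late-numbered side. It gives, for 4 of them, the 60 coding bases richest in G and C, with G and C in capitals (GENCODE M21 transcripts, GRCm38). Cebpb holds 54 such bases at chr2:167689119-167689178 (plus strand), Jund 53 at chr8:70699133-70699192 (plus strand), Klf2 54 at chr8:72319827-72319886 (plus strand) and Scand1 51 at chr2:156312213-156312272 (minus strand).
Cebpb: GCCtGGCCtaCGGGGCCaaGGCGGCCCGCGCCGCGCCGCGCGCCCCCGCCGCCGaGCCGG
Jund: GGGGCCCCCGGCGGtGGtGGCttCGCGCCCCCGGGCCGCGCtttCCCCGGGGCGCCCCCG
Klf2: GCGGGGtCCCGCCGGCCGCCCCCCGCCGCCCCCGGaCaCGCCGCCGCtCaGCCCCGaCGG
Scand1: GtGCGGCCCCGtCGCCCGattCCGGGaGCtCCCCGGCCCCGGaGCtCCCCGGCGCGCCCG
The gene farthest down among those named, Mir6236, is annotated as a miRNA gene. Its mature sequence (RefSeq, GRCm38.p6, chr9:110281353-110281371, plus strand) is shown with the seed, bases 2 to 8, in capitals.
Mir6236: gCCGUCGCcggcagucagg

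The early-numbered libraries were the deeper ones, with 90688957 to 120858975 transcript counts against 56661356 to 78541550, and 34672846 to 44874882 gene counts against 23412829 to 32933634. After the count of each gene was taken from 1 transcript and low counts were removed, 21902 genes were tested. The first principal component of log2(CPM + 1) held 44.4% of the variance. Its scores were -21.6, -64.3, -32.1 and -37.2 on the early-numbered side and 38.8, 49.5, 34.1 and 32.8 on the late-numbered side, so the sides did not overlap. The second component held 33.5% and separated KO from floxed libraries. The pair floxed1 and floxed3 was spread far more than any other pair of the same genotype and side. Its median absolute log2 difference per gene was 0.339, against 0.149 for KO2 and KO3, 0.181 for floxed4 and floxed5 and 0.102 for KO4 and KO5. Differences of more than 2-fold were seen in 9.25%, 0.174%, 0.530% and 0.00913% of genes in these pairs. Leaving out floxed1 or floxed3 changes several counts given below, and those values stand beside them or in the closing section.

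**Figure D1:**
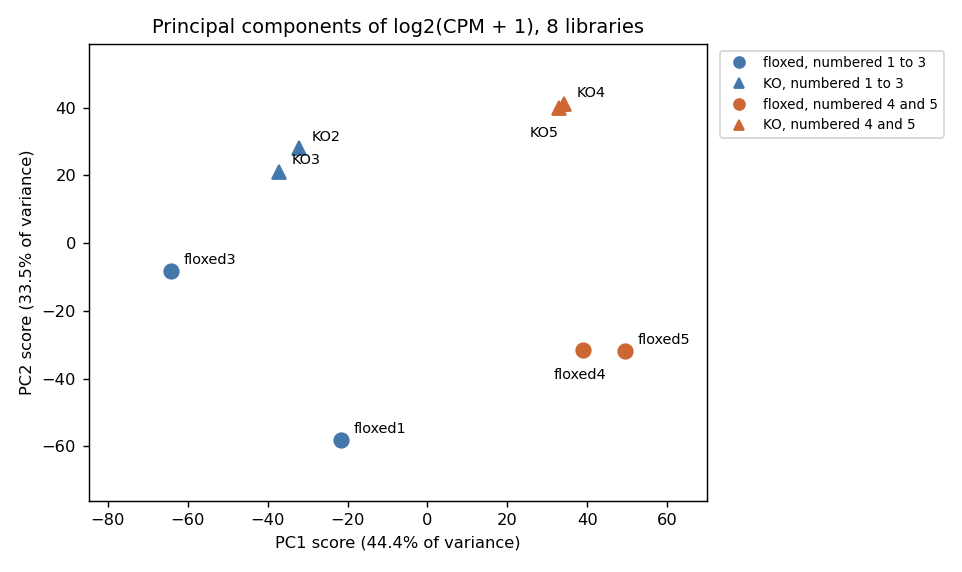
Scores of the 8 libraries on the first (x axis, 44.4% of variance) and second (y axis, 33.5% of variance) principal components of log2(CPM + 1) over 21902 genes, coloured by side and with genotype as marker shape. The early-numbered libraries lie between -64.3 and -21.6 on the first component and the late-numbered ones between 32.8 and 49.5, while the KO libraries lie above the floxed libraries on the second.

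The sorted cell type was checked against its markers before the comparison. Kit, the stem cell factor receptor of haematopoietic progenitors, had 46.8 to 60.2 CPM, and Ly6a, which encodes Sca-1, had 4.29 to 15.2 CPM. Slamf1, which encodes CD150, had 0.881 to 4.39 CPM, and the LT-HSC markers Procr and Fgd5 were at or near 0, with at most 0.962 and 1.09 CPM. Genes of mature cells were abundant in all 8 libraries, since haemoglobin genes took 2.85% to 24.3% of the gene counts and Ngp, a neutrophil granule gene, 0.405% to 1.85%. The name LT-HSC therefore stands here for the sort, and these marker values do not bear it out by themselves. In such bulk libraries, fewer cells of a type and less RNA per cell cannot be told apart.

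Many genes differed between the sides by more than the spread within them. A gene was counted as past the limit when its log2 difference exceeded 1.5 in size and both late-numbered libraries lay beyond both early-numbered ones in floxed and, in the same direction, in KO. By this rule 282 genes (1.29% of 21902) were higher and 859 (3.92%) were lower on the late-numbered side. Without the limit on size, the sides did not overlap within either genotype for 4343 genes that were higher (19.8%) and 4770 that were lower (21.8%). Across all 8 libraries regardless of genotype, this held for 2728 higher genes (12.5%) and 2907 lower genes (13.3%). The median difference of all genes was -0.07. At the edge of the limit, the immediate early gene Ier2 (1.51, 83.2 CPM on average on the early-numbered side and 239 CPM on the late-numbered one) and Spag6l (-1.51) were just inside, and Elp5 (1.497) and Cwc15 (-1.498) just outside.

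Cebpb, Jund and Klf2, transcription factor genes of more than 60% GC and 1 to 3 exons, were past the limit as higher. Cebpb (chr2:167688915-167690418, plus strand), which encodes a transcription factor of emergency granulopoiesis, had 72.1, 31.8, 85.8 and 61.6 CPM in the early-numbered and 341, 503, 316 and 338 CPM in the late-numbered libraries. Every late-numbered library was above every early-numbered one, and the difference was 2.58 (SE 0.30). The span of Tmem189 covers Cebpb and had 95.4% of its count, so the similar values of Tmem189 (difference 2.15) may not be separate from it. Jund (chr8:70698949-70700616, plus strand), a member of the AP-1 transcription factor family, had 89.7, 89.9, 196 and 135 CPM against 313, 395, 586 and 559 CPM, a difference of 1.88 (SE 0.16). Jund was higher in KO than in floxed libraries on both sides, yet the sides were still apart from each other. An antisense gene, Gm11175, had 51% of the count of Jund, and the counts were read here as not separated by strand. Klf2 (chr8:72319033-72321656, plus strand), a transcription factor of lymphocyte quiescence, had 92.7, 50.5, 111 and 96.5 CPM against 244, 332, 326 and 313 CPM, a difference of 1.82 (SE 0.21).

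The remaining higher genes had the same order of libraries. Scand1 (chr2:156311847-156312704, minus strand), a gene for a small SCAN-domain protein, had 47.4, 28.3, 88.6 and 64.1 CPM against 231, 289, 323 and 301 CPM (2.40, SE 0.23). Ptms, encoding parathymosin, had 51.8, 23.8, 44.7 and 40.6 CPM against 174, 179, 157 and 161 CPM (2.06, SE 0.22). H1fx, a linker histone gene, had 1.71, 2.38, 5.41 and 4.65 CPM against 8.84, 9.81, 21.1 and 21.7 CPM (2.13, SE 0.15). In all 3 genes every late-numbered library was above every early-numbered one. Scand1 lies within the span of Cnbd2 and H1fx opposite the longer Gm5577, so both may share counts with another gene. Tusc1 (1.92) and Ccdc85b (1.83), both single-exon genes, were also past the limit. Mir692-3 (2.68), Vmn2r110 (1.94), Trim7 (1.85) and Mir6418 (1.84) each overlap a gene that may account for most of their count. These genes are Ftl1-ps1, Gm5145, Gm12184 and Epo, and the values cannot be assigned to the named genes.

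Ribosomal protein genes were frequent among the genes lowest on the late-numbered side. Rps23 (chr13:90922958-90924950, plus strand), a protein of the decoding centre of the small subunit, had 28.2, 24.2, 34.4 and 44.8 CPM in the early-numbered and 3.997, 3.37, 3.23 and 4.64 CPM in the late-numbered libraries. Its difference was -3.08 (SE 0.19), which is 8.48-fold lower. Rps4x had 53.7, 59.3, 122 and 91.0 CPM against 8.38, 8.97, 11.7 and 11.8 CPM (-2.94, SE 0.15), and Rpl39 had 31.2, 16.2, 44.5 and 38.8 CPM against 5.83, 2.84, 3.94 and 3.80 CPM (-2.94, SE 0.31). On both sides of the split Rps4x was higher in KO than in floxed libraries, and the early-numbered libraries were above all late-numbered ones. Rps26 (-2.71, SE 0.27) and Rpl21 (-2.70, SE 0.22) had differences of like size. These 4 genes other than Rps23 are not in the list of ribosomal protein genes summarised further on.

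The other genes at the low end have unrelated roles. Mir6236 (chr9:110281287-110281409, plus strand) had 37.3, 62.9, 71.3 and 36.6 CPM in the early-numbered and 1.11, 1.26, 1.06 and 0.797 CPM in the late-numbered libraries, a difference of -5.62 (SE 0.30). No library of one side came near the other. Chil4, which encodes a chitinase-like protein of myeloid cells, had 18.9, 12.9, 9.87 and 14.9 CPM against 0.765, 0.766, 0.816 and 1.051 CPM (-4.04, SE 0.25). Mtcl1 (-3.63) and Otx2os1 (-2.64) hold a pseudogene or another gene model, Gm4705 and Gm48909, that had 98.1% and 96.5% of their counts. The histone genes Hist1h2ah (-2.98) and Hist1h2ad (-2.69) share 92.5% and 68.3% of their 31-base stretches with other genes.

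**Figure D2:**
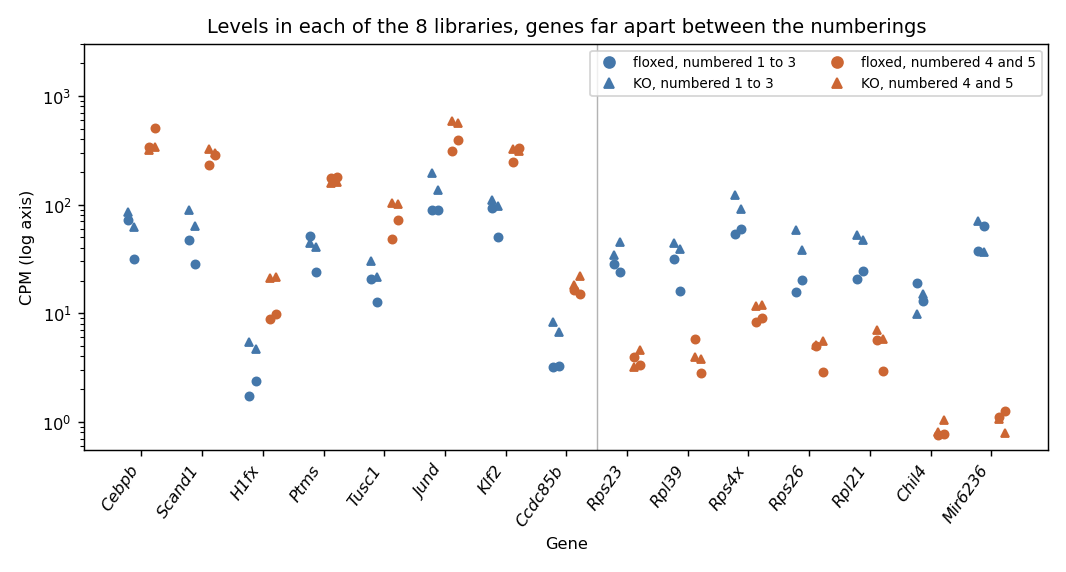
CPM (log axis) of 15 genes in each of the 8 libraries, with colour for the side and marker shape for the genotype. The 8 genes left of the line were higher and the 7 right of it lower on the late-numbered side, and for Mir6236 the values run from 36.6 to 71.3 CPM on one side and from 0.797 to 1.26 CPM on the other.

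The genes past the limit shared features that the rule did not use. The higher genes had a median GC content of 56.3% and the lower genes of 48.4%, beside 49.6% over all genes tested. Both groups were short, with median transcript lengths of 744 and 718 bases beside 2120 bases for all genes. Genes of a single exon made up 69.5% of the higher and 58.6% of the lower genes, beside 20.8% of all genes. Processed pseudogenes made up 34.0% of the higher genes (96 of 282) and 47.7% of the lower genes (410 of 859), beside 13.2% of all genes. Among protein-coding genes alone, 40.2% of the 82 higher and 4.48% of the 223 lower genes had a single exon, beside 3.12% of all.

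GC content ordered the protein-coding genes along the difference. In 716 genes with at most 40% GC the median difference was -0.58, in 2600 genes of 40% to 45% it was -0.44, and in 3734 genes of 45% to 50% it was -0.23. In 3835 genes of 50% to 55% the median was 0.05, in 2918 of 55% to 60% it was 0.34, in 623 of 60% to 65% it was 0.63, and in 75 genes above 65% it was 1.06. In the last bin 57.3% of genes did not overlap between the sides within a genotype and were higher, and 6.67% were lower, while in the first bin the shares were 1.68% and 57.4%. The Spearman correlation of the difference with GC content was 0.61 over 14501 protein-coding genes. It was 0.49 within floxed and 0.62 within KO libraries, and 0.67 over 3518 genes that share neither span nor 31-base stretches with another gene. These points are genes measured in the same 8 libraries. The sides also differed in depth, and the part of depth in this relation was not tested. Outside haemoglobin genes, genes above 55% GC took 18.8%, 18.6%, 22.1% and 20.3% of the gene counts in the early-numbered and 23.2%, 25.9%, 27.6% and 27.6% in the late-numbered libraries. Genes of at most 45% GC took 25.4%, 27.4%, 22.3% and 24.2% against 20.5%, 18.5%, 17.8% and 18.03%. The sides did not overlap in either share, and on each side the KO libraries had the larger GC-rich share.

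When the trend with GC content was removed from each library, an alternative chosen after the data had been seen, 170 genes were past the limit as higher, beside 282. The differences of Cebpb, Scand1, Jund and Klf2 were then 1.63, 1.42, 0.94 and 1.14, and those of Rps23 and Mir6236 were -2.87 and -5.92. Because the trend was fitted to these same libraries, its removal makes the differences of GC-rich genes smaller by construction. The differences of Rps23 and Mir6236 were of similar size as before.

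The number of exons ordered the genes as well. Protein-coding genes of 1 exon (453) had a median difference of 0.42 and those of 2 exons (722) of 0.24. The medians were 0.01, -0.05, -0.16 and -0.28 for genes of 3 to 5, 6 to 10, 11 to 20 and 21 or more exons. After removal of the GC trend the medians ran from 0.36 for 1 exon to -0.26 for 21 or more. Mean exon length, a measure added after the data had been seen, had the same order, with a median of -0.26 for exons of at most 150 bases on average and 0.05 for those above 1000 bases. The Spearman correlation of the difference with the number of exons was -0.23 over 14501 genes, and -0.31 after removal of the GC trend.

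Where along the genes the counts lay was compared as well. Short transcripts at the 3′ end held a median of 26.8% to 28.8% of the count of their gene in the early-numbered and 28.7% to 29.8% in the late-numbered libraries (3437 genes with at least 800 counts). Short transcripts at the 5′ end held 11.5% to 16.9% against 10.8% to 13.6% (1605 genes). The sides overlapped in both measures. Genes nested in an intron had 33.7% to 39.5% of the count of the gene around them on the early-numbered and 38.9% to 40.9% on the late-numbered side (1108 pairs). With a minimum of 80 counts the differences turned, from 1.40 to -0.0241 percentage points for the 3′ end and from 3.79 to -0.305 for nested genes.

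**Figure D3:**
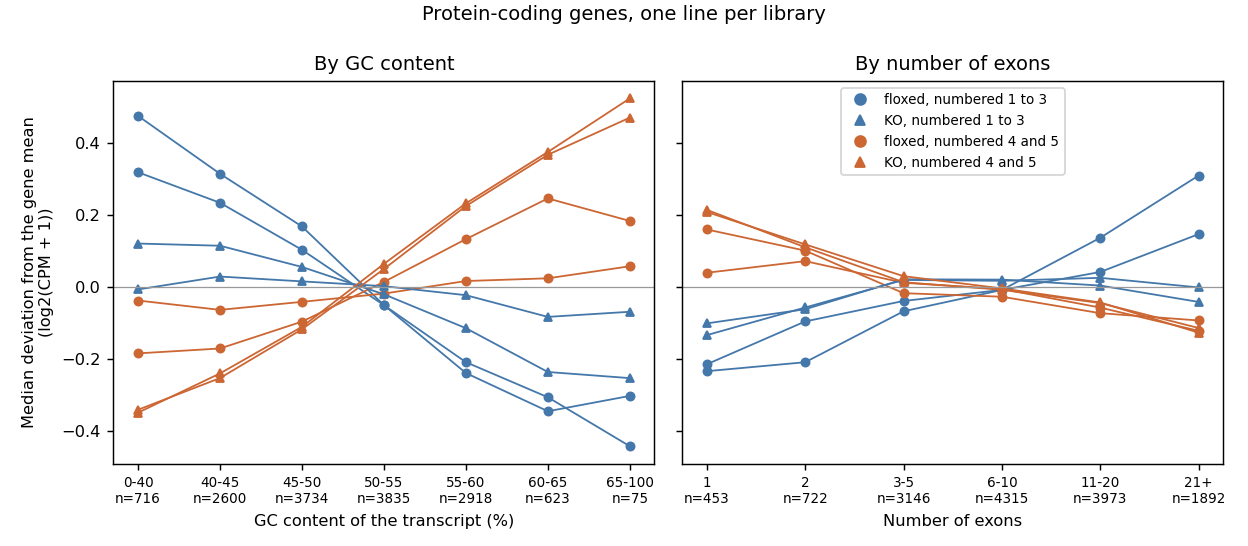
Median deviation of protein-coding genes from their mean over the 8 libraries (log2(CPM + 1), y axis) by GC content of the transcript in percent (left) and by number of exons (right), with 1 line per library and the number of genes under each bin. Above 65% GC the early-numbered libraries lie below 0 and the late-numbered ones above 0, and below 40% GC the sides lie in the opposite order, with KO2 and floxed4 close to 0.

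Ribosomal protein genes were lower on the late-numbered side, while their pseudogenes went both ways. Of the 49 listed cytosolic ribosomal protein genes, which encode parts of the ribosome, 17 were lower past the limit and none was higher, beside 3.92% and 1.29% of all genes. The sides did not overlap within either genotype for 39 lower genes (79.6%) and 2 higher genes. The median difference was -1.24, and it was -0.96 within floxed and -1.37 within KO libraries. Rpl32 had 54.0, 44.3, 78.0 and 70.3 CPM in the early-numbered and 12.4, 7.70, 11.0 and 10.04 CPM in the late-numbered libraries (-2.56). Rpl7 had 57.0, 52.0, 82.0 and 79.5 CPM against 15.2, 15.6, 12.7 and 13.2 CPM (-2.23). In both genes every late-numbered library was below every early-numbered one. The exceptions were Rps2, with 74.5, 14.4, 162 and 127 CPM against 108, 118, 196 and 178 CPM (0.86), and Rpl8, with 296, 315, 558 and 486 CPM against 449.5, 510.3, 683 and 618 CPM (0.48). Both are GC-rich (59.2% and 58.0%), and after removal of the GC trend their differences were 0.36 and 0.04.

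The copies printed above had another pattern. Rpl32l had 81.9, 84.0, 111 and 111 CPM in the early-numbered libraries against 137, 124, 116 and 131 CPM (0.41), and Gm12174 had 244, 228, 309 and 310.5 CPM against 465, 448, 439.8 and 438 CPM (0.73). Both copies were higher in every late-numbered than in every early-numbered library. They do not stand for all copies of their gene. The 7 linked copies of Rpl32 together had a log2 difference of mean CPM of -0.005, and the 9 of Rpl7 together had 0.41. Over the 48 families with a linked copy, the summed copies were higher in 31 and lower in 17, with a median log2 difference of 0.16. The copies of Rps27 (-1.90) and Rplp1 (-1.29) were among the lower ones.

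The sums over families overlapped between the sides in part. The 49 genes summed to 2466, 2297, 4388 and 3628 CPM on the early-numbered side and to 1736, 1683, 2105 and 2017 CPM on the late-numbered side. The 440 pseudogenes linked to them summed to 14057, 12480, 21580 and 19296 CPM against 22391, 20690.1, 23423 and 23345 CPM. Unprocessed pseudogenes were allowed among these links besides processed ones. Genes and copies together summed to 16524, 14777, 25968 and 22924 CPM against 24126, 22373, 25528 and 25362 CPM. The copies thus held 85.1%, 84.5%, 83.1% and 84.2% of the counts of these families in the early-numbered and 92.8%, 92.5%, 91.8% and 92.0% in the late-numbered libraries. On the log2 scale, the means differed by -0.76 for the genes, 0.41 for the copies and 0.28 for the families. Where reads match both a gene and a copy, the 2 counts may not be separate measurements of expression. The part of read placement in these shares was not tested. The share of 31-base stretches that a ribosomal protein gene has in common with other genes did not order the differences in a single direction, with medians of -0.78, -1.14, -1.03 and -1.43 for 5, 13, 16 and 15 genes with up to 25%, 50%, 75% and 100% of shared stretches.

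Gene and copies were compared in all families as well. Among all 5877 processed pseudogenes with a count, 3316 could be linked to a parent gene by at least 10% of shared 31-base stretches. Of 1094 families with a multi-exon gene in which gene and copies each averaged at least 1 CPM, the copies had the higher difference in 928 and the lower in 166. The median difference was -0.27 for the genes, 0.35 for their copies and 0.06 for the families. The share of the family's counts on the copies did not overlap between the sides in 574 families where it was higher on the late-numbered side and in 27 where it was lower. Among all genes tested, 12.5% were higher and 13.3% lower without overlap across the 8 libraries. In the 1020 families outside the ribosomal proteins the medians were -0.23 for the genes and 0.37 for the copies, and in the 74 ribosomal protein families they were -1.29 and 0.13. In the 17 families whose gene has a single exon, the order was the reverse, with 0.47 for the genes and -0.06 for the copies, and the copies were lower than the gene in 13 of 17. A gene of a single exon has, like its processed copy, no intron.

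**Figure D4:**
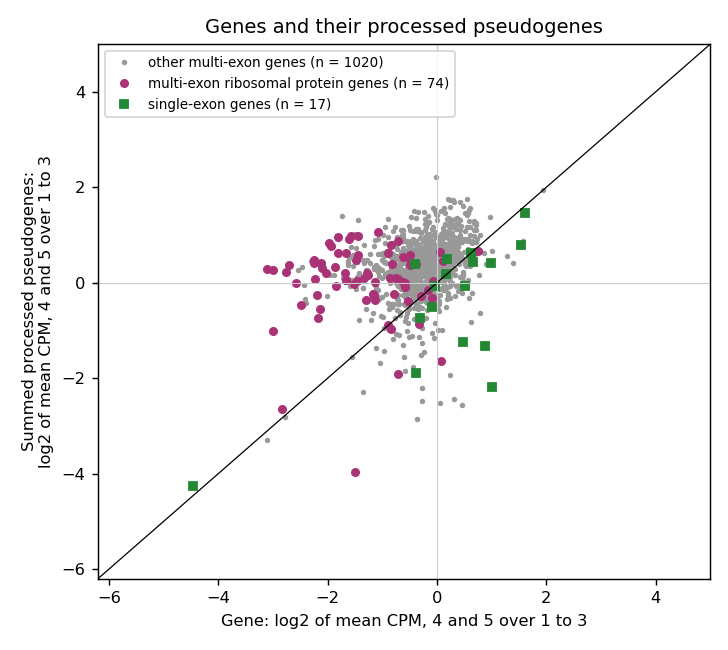
Log2 of mean CPM on the late-numbered over the early-numbered side for genes (x axis) and for the sum of their processed pseudogenes (y axis), with 1 point per family and the line of equal values. Of the 1094 families with a multi-exon gene 928 lie above the line, and of the 17 with a single-exon gene 13 lie below it.

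Copies of intermediate likeness to their gene were most often past the limit as lower. Of 489 tested copies that share 40% to 60% of their 31-base stretches with the parent, 153 (31.3%) were lower past the limit. Another 6 (1.23%) were higher, and the median was -0.26. Of all genes tested, 3.92% were lower and 1.29% higher past the limit. Of 555 copies that share 20% to 40%, 89 (16.0%) were lower and 23 (4.14%) higher, with a median of 0.16. Of 373 copies that share 60% to 80%, 73 (19.6%) were lower and 3 (0.804%) higher, with a median of -0.09. Among those that share at most 20% (381), 17 (4.46%) were lower and 28 (7.35%) higher, with a median of 0.38. Among those that share more than 80% (385), 19 (4.94%) were lower and 4 (1.04%) higher, with a median of 0.19. In both of these groups the lower share was close to that of all genes. Counts of copies past the limit were thus not in one direction, and both very similar and little similar copies had medians above that of all genes.

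Immediate early genes, which are transcribed within minutes of a stimulus and of cell handling, were higher on the late-numbered side. Of 30 genes, 3 (Ier2, Klf2 and Jund) were past the limit as higher and none as lower. For 19 (63.3%) the sides did not overlap within either genotype and all 19 were higher, beside 19.8% of all genes. The median difference was 0.65, with 0.98 within floxed and 0.49 within KO libraries, and 0.44 after removal of the GC trend, when 16 genes still had no overlap. Junb, another AP-1 gene, had 106, 29.4, 73.5 and 62.4 CPM in the early-numbered and 233, 282, 140.4 and 137 CPM in the late-numbered libraries (1.48). Ier2 had 112, 36.7, 103 and 81.4 CPM against 257, 313, 204 and 182 CPM. Jun had 14.3, 7.34, 9.10 and 13.8 CPM against 36.2, 46.5, 16.5 and 15.5 CPM (1.22). Fos, the gene for the AP-1 partner of the JUN proteins, did not follow, with 56.3, 8.55, 10.4 and 17.3 CPM against 71.3, 78.8, 9.83 and 10.3 CPM (0.40). Its late-numbered floxed libraries were high and its late-numbered KO libraries as low as the lowest early-numbered ones. Klf6 (-0.11) and Nr4a3 (-0.17) were at the low end of the list.

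The heat shock list went both ways. The inducible chaperone gene Hspa1a was past the limit, with 1.002, 0.322, 0.923 and 0.806 CPM in the early-numbered and 1.998, 3.83, 2.24 and 2.10 CPM in the late-numbered libraries (1.74), and the overlapping Gm20481 had 93.3% of its count. Hspa1b was higher too (1.37). The mitochondrial chaperonin gene Hspe1 was lower, with 8.33, 8.79, 13.7 and 12.6 CPM against 3.66, 3.30, 4.29 and 4.89 CPM (-1.41), and it overlaps Hspd1. The median of the 21 genes was -0.34, and 9 lower (42.9%) and 5 higher genes (23.8%) had no overlap, beside 21.8% and 19.8% of all genes.

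Among 18 clock genes, the activator gene Arntl (BMAL1) and the gene of its repressor Nr1d1 (REV-ERBα) had opposite differences. Arntl (chr7:113207465-113314126, plus strand) had 6.88, 23.0, 15.6 and 14.5 CPM in the early-numbered and 3.87, 3.68, 9.69 and 8.44 CPM in the late-numbered libraries (-1.34, SE 0.38). Nr1d1 (chr11:98767932-98775333, minus strand) had 4.48, 4.35, 8.48 and 6.48 CPM against 7.78, 9.20, 17.4 and 17.9 CPM (1.09, SE 0.15). Dbp, an output gene of the clock, had 3.22, 3.03, 6.46 and 3.87 CPM against 6.51, 5.67, 12.95 and 11.5 CPM (1.11, SE 0.19). The sides did not overlap within either genotype for any of the 3 genes. After removal of the GC trend the differences were -1.21, 0.74 and 0.45. Nr1d1 and Dbp may share counts with the larger overlapping genes Thra and Sphk2. Arntl and Dbp were the lowest and the highest gene of the list. Over the list as a whole, 6 genes (33.3%) were higher and 2 (11.1%) lower without overlap, beside 19.8% and 21.8% of all genes. The median was 0.13, and 0.07 after removal of the GC trend. No time of collection is given in the labels or the methods.

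Genes of DNA replication and mitosis were lower on the late-numbered side. In the list of 26 DNA replication genes the median was -0.52, and 15 (57.7%) were lower without overlap and none higher, beside 21.8% and 19.8% of all genes. Prim1, a DNA primase subunit, had 23.5, 45.1, 30.9 and 34.5 CPM in the early-numbered and 14.9, 12.3, 18.5 and 18.6 CPM in the late-numbered libraries (-1.07). In 24 mitosis genes the median was -0.42, with 15 lower and 1 higher (Cdc20) without overlap. Ttk, a kinase of the spindle checkpoint, had 23.3, 44.97, 23.9 and 30.04 CPM against 13.5, 13.1, 12.1 and 11.4 CPM (-1.28), and the checkpoint kinase gene Bub1 had a difference of -1.10. After removal of the GC trend the medians of the lists were -0.33 and -0.29, and without floxed3 they were -0.24 and -0.26. No gene of either list was past the limit.

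In 32 nuclear genes of the respiratory chain the median was -0.53, and 19 (59.4%) were lower and 4 (12.5%) higher without overlap, beside 21.8% and 19.8% of all genes. Uqcrb, a subunit of complex III, had 14.6, 8.25, 16.2 and 15.3 CPM in the early-numbered and 3.49, 2.18, 2.55 and 2.03 CPM in the late-numbered libraries (-2.39), and Ndufa4 had 17.9, 17.3, 30.96 and 25.9 CPM against 8.72, 5.94, 4.01 and 4.09 CPM (-2.03). Both were past the limit. In 34 proteasome genes the median was -0.52 with 18 lower (52.9%) and 1 higher (2.94%) without overlap, and Psma5, a subunit of the 20S core, was past the limit (-1.63). In 30 splicing factor genes the median was -0.40 with 19 lower (63.3%) and 3 higher (10%). The 13 protein-coding genes of the mitochondrial genome had a median of -0.48 with 3 lower (23.1%) and none higher without overlap. Their median was -0.31 without floxed3 and 0.03 after removal of the GC trend, their own GC content being 37.1% at the median.

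Structured and nuclear noncoding RNAs were lower in part. Of 13 tested, 6 were lower (46.2%) without overlap and none was higher, beside 21.8% and 19.8% of all genes. The median was -0.60 (-0.39 without KO4). Lars2, the mitochondrial leucyl-tRNA synthetase gene that was listed with them, had 133, 164, 254 and 83.5 CPM in the early-numbered and 45.6, 57.8, 67.2 and 44.7 CPM in the late-numbered libraries (-1.56). Rn7sk, the RNA that holds the elongation factor P-TEFb inactive, had 2.95, 7.62, 2.31 and 1.66 CPM against 1.32, 0.690, 1.35 and 0.580 CPM (-1.73). Both were past the limit. In 26 replication-dependent histone genes the median was 0.17, with 7 higher (26.9%) and 4 lower (15.4%) without overlap, close to the shares of all genes. With the GC trend removed it was -0.22, and without KO3 it was -0.0074. Hist1h2ac (-1.55) was past the limit.

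Haemoglobin and neutrophil genes took different shares of the counts on the sides, but not in both genotypes alike. Haemoglobin genes took 2.85%, 7.67%, 14.0% and 12.2% of the gene counts in the early-numbered and 5.02%, 4.999%, 20.7% and 24.3% in the late-numbered libraries. The gene whose share differed most was the alpha globin gene Hba-a1, with 0.780%, 2.01%, 4.89% and 4.03% against 1.65%, 1.62%, 7.3999% and 9.30%. The mean of its share was higher by 3.89 percentage points in the late-numbered KO libraries and by 0.240 in the floxed ones. Hbb-bs, a beta globin gene, was higher by 2.17 percentage points in KO and differed by -0.510 in floxed libraries. Ngp differed by 0.824 percentage points in floxed and -0.0429 in KO libraries. Immunoglobulin genes took 0.406%, 0.187%, 0.139% and 0.137% against 0.528%, 0.521%, 0.138% and 0.136%, so their share was higher in the late-numbered floxed libraries alone. In these shares floxed1 lay nearer to floxed4 and floxed5 than to floxed3.

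Marker lists of other cell types are given beside 19.8% higher and 21.8% lower of all genes without overlap. The erythroid list (24 genes, summed level 29723 to 150074 CPM on the early-numbered and 53532 to 300415 CPM on the late-numbered side) had a median of -0.40, but of -1.02 within floxed and 0.18 within KO libraries, and 8 genes were lower and 1 was higher without overlap. Its median was 0.15 without floxed3. The neutrophil list (24 genes, summed level 21351 to 56654 CPM on the early-numbered and 31193 to 63361 CPM on the late-numbered side) had a median of 0.25, of 0.55 within floxed and -0.03 within KO libraries, and 7 genes (29.2%) were higher and none lower without overlap. Its median was 0.01 without floxed3. Cebpe, a transcription factor gene of granule maturation, had 159, 71.9, 151 and 113 CPM against 263, 313, 225 and 225 CPM (1.04). The monocyte and macrophage list (22) had a median of 0.31, with 10 higher and 3 lower, and 0.13 without floxed3. Its ends were Cd14 (0.99), a co-receptor for bacterial lipopolysaccharide, and the mannose receptor gene Mrc1 (-1.048). The median was 0.36 for 25 T and NK cell genes, -0.23 for 22 B cell genes, 0.28 for 16 plasma cell genes, 0.15 for 18 dendritic cell genes and -0.19 for 20 megakaryocyte genes. It was 0.06 for 16 genes of basophils, mast cells and eosinophils and -0.31 for 19 genes of stroma and endothelium. Without floxed3 the medians were 0.19 for T and NK cells and 0.17 for plasma cells, and the sign turned for B cells (0.07), megakaryocytes (0.15), basophils, mast cells and eosinophils (-0.25) and stroma and endothelium (0.11). The 26 markers of HSCs and progenitors had a median of -0.08 with 1 gene higher (Gata2) and 3 lower (Tek, Mllt3 and Flt3) without overlap. No member of these cell type lists was past the limit. The part of differences in cell composition in the results above was not tested.

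In the other lists, again beside 19.8% higher and 21.8% lower of all genes, the median was 0.38 for 18 NF-kappaB and inflammatory genes, with 5 higher and none lower without overlap (0.20 without floxed3), 0.14 for 22 genes of the unfolded protein and integrated stress response (7 and 1), and 0.25 for 18 glucocorticoid-responsive genes (4 and 3). It was 0.03 for 30 interferon-stimulated genes (5 and 4), 0.21 for 22 genes of glycolysis and hypoxia (4 and 1), -0.01 for 21 genes of cholesterol synthesis (8 and 4) and 0.04 for 19 p53 targets (3 and 4). Atf5, a stress-responsive transcription factor gene, was higher without overlap (1.06), and its span is shared with Il4i1.

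The 6 female- and male-specific genes had a median of -0.81, or -0.50 without KO3 and -0.34 with the GC trend removed. The Y-linked genes Ddx3y (-0.62), Eif2s3y (-0.58), Kdm5d (-0.45) and Uty (-1.001) were lower without overlap (66.7% of the list), beside 21.8% of all genes. None of the list was higher, beside 19.8%. The median GC content of the list was 38.9%, and of all genes with at most 40% GC 44.6% were lower without overlap. With the GC trend removed, 2 of the 6 were lower without overlap. Xist and its antisense gene Tsix overlapped between the sides, with their highest values in KO3.

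The KO against floxed comparison is balanced over the sides and was tested with the side as a block. Ociad1 (chr5:73292784-73314069, plus strand) was checked first. It had 41.6 and 66.9 CPM in floxed1 and floxed3, 15.2 and 19.7 CPM in KO2 and KO3, 36.7 and 31.3 CPM in floxed4 and floxed5, and 12.5 and 11.7 CPM in KO4 and KO5. On both sides each KO library was below each floxed library. The log2 fold change of KO over floxed was -1.64 (SE 0.24) within the early-numbered libraries, with an adjusted p of 0.0151 from edgeR's quasi-likelihood test. It was -1.49 (SE 0.25) within the late-numbered libraries, with an adjusted p of 0.0320 from the same test. The difference between these effects was 0.14 (SE 0.34, adjusted p = 0.884 from edgeR). Over all 8 libraries with the side as a block it was -1.57 (adjusted p = 0.00130 from edgeR), and from -1.65 to -1.38 with each library left out in turn.

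With the side as a block, 521 genes (2.38%) were called in edgeR (adjusted p below 0.05, log2 fold change beyond 1.5 in either direction), 200 higher (0.913%) and 321 lower (1.47%) in KO libraries. The count was 318 without floxed1 and 1158 without floxed3. Without the block 261 genes passed. With the replicate number as the block, which uses the 3 pairs numbered 3, 4 and 5, 44 passed. Within the early-numbered libraries 390 genes passed (1.78%), 105 higher (0.479%) and 285 lower (1.3%), and within the late-numbered libraries 196 (0.895%), 127 higher (0.58%) and 69 lower (0.315%). Both counts rest on 2 against 2 libraries with a spread estimated over all 8. With 1 library left out they ranged from 6 (without KO3) to 1488 (without floxed3) on the early-numbered side, and from 2 (without floxed4 or floxed5) to 1056 (without floxed3) on the late-numbered side. Genes called on both sides numbered 79, which is 20.3% of the 390 and 40.3% of the 196, and none was called in opposite directions. Of the 390 genes, 361 (92.6%) had the same sign on the late-numbered side, with a median fold change there of 1.09 on the log2 scale beside 2.07 on the side of the call. Of the 196, 195 (99.5%) had the same sign on the early-numbered side, with medians of 1.52 beside 2.18. Because the genes were chosen for a large value on one side, a smaller value on the other does not show a difference between the sides.

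**Figure D5:**
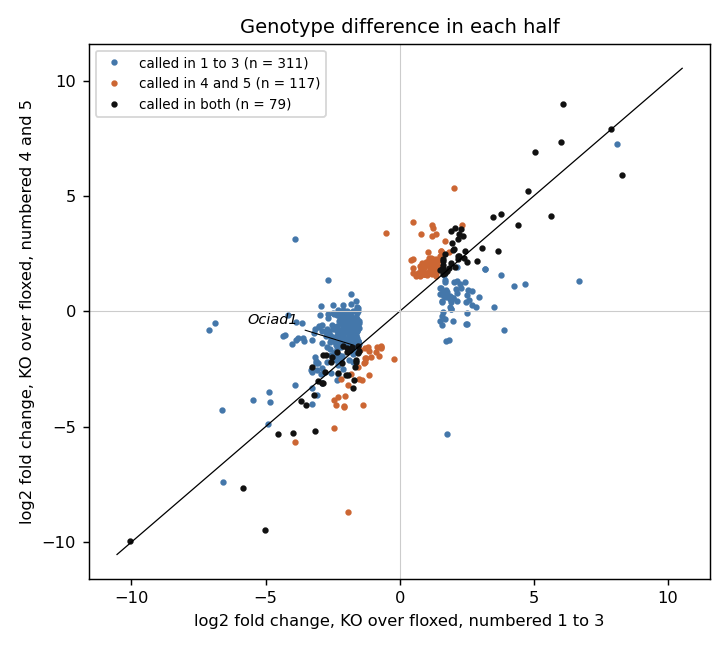
Log2 fold change of KO over floxed within the early-numbered (x axis) and within the late-numbered libraries (y axis) for the 507 genes called on at least 1 side, with the line of equal values. The 79 genes called on both sides are black, Ociad1 (-1.64 and -1.49) was called on the early-numbered side, and the 311 and 117 genes called on 1 side lie nearer to 0 on the other axis.

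The difference of the genotype effect between the sides was tested as an interaction. In edgeR no gene passed an adjusted p of 0.05 (smallest adjusted p = 0.570), while 1863 genes (8.51%) had an unadjusted p under 0.05. limma-voom also called none (1581 unadjusted), and DESeq2 called 15 (1938 unadjusted). Without floxed1, edgeR called 6339 genes, and without floxed3 it called 5. With no filter on low counts it called 583. The cause of these shifts was not tested. Of the 15 genes that DESeq2 called, Mid1, a microtubule-associated ubiquitin ligase gene at the boundary of the pseudoautosomal region of the X chromosome, had the smallest adjusted p (1.33e-05) and was named after its values were seen. It had 2.82 and 2.88 CPM in floxed1 and floxed3, 9.25 and 7.75 CPM in KO2 and KO3, 18.9 and 16.6 CPM in floxed4 and floxed5, and 10.5 and 13.3 CPM in KO4 and KO5. KO libraries were thus above floxed ones on the early-numbered side and below them on the late-numbered side, an interaction of -2.20 on the log2 scale by DESeq2 and of -2.15 (SE 0.28, adjusted p = 0.570) by edgeR. Of the stretches of Mid1, 45.7% also occur in other genes. For Hba-a1 the genotype effect was 1.86 (SE 0.49) on the early-numbered and 2.59 (SE 0.50) on the late-numbered side, an interaction of 0.73 (SE 0.67, adjusted p = 0.696 from edgeR). Egr1, an immediate early gene, was lower in the late-numbered KO libraries (-2.06, SE 0.40, adjusted p = 0.0447 from edgeR), with -0.19 (SE 0.39) on the early-numbered side and an interaction that did not pass (-1.86, SE 0.55, adjusted p = 0.570).

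Genotype was itself related to GC content. In protein-coding genes of at most 40% GC the median KO over floxed log2 fold change was -0.34, and in those above 65% GC it was 0.51, with the side as a block. The direction was that of the late-numbered side against the early-numbered one. With the GC trend removed from each library, 89 genes instead of 196 were called within the late-numbered libraries and 451 instead of 521 over all 8.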

How the data were processed

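The deposited files hold raw counts per transcript, 1 file per library and 1 library per mouse (2 floxed and 2 KO on each side, 8 in all). Some files were recorded under another unit for a technical reason of reading, but their deposited values are whole-number counts too. Per the study's methods and the submitters' processing notes, the authors used FastQC for read quality, Trim Galore for trimming and Bowtie2 for alignment to GRCm38 (mm10) reference transcripts. The versions, the counting tool and the annotation release are not given in the sources used here. How reads were counted is not stated either. The counts were read here as covering the whole genomic span of a transcript, introns and both strands included. On that reading, a gene inside or opposite another shares its counts. Reads that match a gene and a pseudogene could be placed on either. Of 138930 transcripts, 138789 were found in GENCODE M21 and gave 54749 genes.

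From the counts, each gene was represented by whichever of its transcripts had the largest summed count, since spans of transcripts overlap. edgeR 4.0.16 (R 4.3.3) was used with TMM scaling, removal of low counts (filterByExpr by genotype, 21902 genes left) and the quasi-likelihood test with Benjamini-Hochberg adjustment. The side difference was fitted with genotype as a block and is given without a test. Genotype was tested with the side as a block, within each side and as an interaction, and calls needed an adjusted p under 0.05 and, except for the interaction, an absolute log2 fold change above 1.5. Nothing in the labels says that libraries of a side were prepared together, and p-values measure the spread between single mice. Principal components used log2(CPM + 1). Shared sequence is the percentage of 31-base stretches of a transcript found in transcripts of other genes. Scripts in Python 3.11.15 (numpy 2.4.6, pandas 2.3.3, scipy 1.17.1) made the tables. The fits were tested on simulated data with known changes first.

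Numbers 3, 4 and 5 occur in both genotypes, without a stated meaning. The deviations of same-numbered libraries from their genotype means had correlations of 0.427, 0.454 and 0.707. The crossed pairs of 4 and 5 had 0.446 and 0.711, and after removal of genotype and side means the same-numbered correlations were 0.0148, -0.0105 and -0.0105. The values for numbers 4 and 5 are equal by construction. A likeness of same-numbered libraries beyond their shared side was thus not seen. Treating the numbers as pairs is given only as an alternative, with its blocked count of genotype calls.

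The split, the gene lists and the named genes were chosen with earlier results of these data known. Named genes were the 12 higher and 12 lower genes with the largest difference among those past the limit with a mean of at least 5 CPM and a proper gene symbol (no clones, pseudogenes or receptor segments), the 10 genes whose share of counts differed most, the 2 highest and 2 lowest members of each of 31 lists, the interaction genes, Ociad1 and sex-specific genes, with single further genes as examples. A few genes that met the rule are not reported here. Alternatives were DESeq2 1.42.0, its size factors, limma-voom (limma 3.58.1), no filter or a stricter filter on low counts, a limit of 1, sums over transcripts, leaving out overlapping genes or each library, the replicate block and, added after seeing the data, removal of the GC trend from each library. Errors are given from the spread between libraries, not from counting alone.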

Additional observations from a re-analysis of the deposited data

Results flagged for a closer look

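Of 108 values tested within a side, 9 had a library far from the other 3 by Dixon's criterion, where chance gives about 1 in 20. In the early-numbered libraries these were Xist with 9.73 CPM in KO3 (0.185 to 0.666 CPM in the others), its antisense gene Tsix with 10.1 CPM in KO3 (0.185 to 0.692 CPM), and the number of genes detected at equal depth, 32928 in floxed3 (28535 to 28919). Xist and Tsix overlap, and their counts were read here as not separated by strand. Ddx3y, a Y-linked gene, had 27.0 to 56.1 CPM in all 8 libraries. In the late-numbered libraries floxed5 stood apart in Cebpb with 503 CPM (316 to 341 CPM), in Tmem189, which shares its span, with 439 CPM (291 to 303 CPM), and in Mir6418 with 14.6 CPM (10.3 to 10.4 CPM). Floxed4 stood apart in Trim7 with 31.5 CPM (70.7 to 73.8 CPM) and in Uty, another Y-linked gene, with 7.53 CPM (9.66 to 9.89 CPM). CT010467.1 had 1824 CPM in KO4 and 1029 to 1066 CPM in the other late-numbered libraries.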

How the results depend on the processing

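For the side difference, 282 higher and 859 lower genes became 930 and 1477 with a limit of 1, 508 and 1397 with no filter on low counts, 118 and 411 with overlapping genes left out, and 170 and 781 with the GC trend removed. With each library left out they ranged from 268 to 415 and from 850 to 1061. No paired analysis was possible for the side difference because each number lies on 1 side only. The 521 genotype calls became 843 with no filter, 298 with overlapping genes left out, 261 with no block, 44 with the replicate block and 28 with the replicate block and the GC trend removed. Leaving out 1 library gave 318 to 1158, with 318 without floxed1, 320 without floxed5, 340 without KO2 and 1158 without floxed3. The interaction, with 0 calls, gave 583 with no filter, 15 with DESeq2, 5421 with the replicate block, which leaves 1 residual degree of freedom, and 0 to 6339 with 1 library left out (6339 without floxed1 and 5 without floxed3).

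The 390 calls within the early-numbered libraries became 839 with no filter and 609 with DESeq2. Leaving out 1 library gave 6 (KO3), 13 (KO2), 76 (KO4 or KO5), 198 (floxed5), 202 (floxed4), 903 (floxed1) and 1488 (floxed3). The 196 calls within the late-numbered libraries became 937 with no filter, 121 with sums over transcripts, 89 with the GC trend removed, 734 with DESeq2 and 124 with limma-voom. Leaving out 1 library gave 2 (floxed4 or floxed5), 11 (KO4 or KO5), 35 (KO2 or KO3), 1017 (floxed1) and 1056 (floxed3). Where a genotype was left with 1 library on a side, that library was assumed to vary like the others.

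The median of the ribosomal protein list was -1.24, -1.35 with the GC trend removed and -1.24 to -1.08 with 1 library left out. Lists more than 0.4 from the median of all genes numbered 10, then 5 with the GC trend removed and 5 to 15 with 1 library left out (5 without floxed3). The difference in the share of 3′ transcripts was 1.40 percentage points, -0.0241 with a minimum of 80 counts and 1.02 to 1.69 with 1 library left out. That of genes nested in introns was 3.79 percentage points and -0.305 with a minimum of 80 counts. The causes of these shifts were not tested. Of 472 values of the 33 named genes past the limit over the alternatives, none reversed in sign and 471 stayed above 2-fold. The late-numbered libraries were the shallower ones, which limits genes of low counts there.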
